A study of Mus musculus with 6 samples.

Results

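The genes described here are 10 mouse genes that make, break down or sense prostaglandins and leukotrienes, out of 32285 genes counted: Ptgs1, Ptgs2, Hpgds, Ptges, Hpgd, Ptger2, Ptger4, Alox5, Alox5ap and Ltc4s. They were picked by gene symbol and chosen by their measured UMI counts in these libraries, with Hpgds known to be higher and Hpgd lower in nonclassical monocytes of AML lungs, so the values in that class are given as a description with no test. UMI counts, that is counts of distinct captured RNA molecules, came from 3 libraries of AML-infiltrated lung and 3 libraries of normal lung. AML is acute myeloid leukaemia; the labels name neither the leukaemia model, the strain or age of the mice nor which cells are leukaemic. The lungs of both groups were perfused and digested, and cells bearing the pan-leukocyte protein CD45 were isolated on magnetic beads before droplet capture (10x Genomics, 3' chemistry v3.1). Nothing in the labels says that the libraries of a group came from separate mice, so p-values speak only of the variation among these 6 libraries, part of which could be technical.

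Prostaglandins and leukotrienes are short-lived lipid signals made from arachidonic acid. Cyclooxygenases, encoded by Ptgs1 and Ptgs2, turn arachidonic acid into an intermediate that terminal synthases shape into prostaglandin D2 (Hpgds) or prostaglandin E2 (Ptges), and Hpgd starts their breakdown. The 5-lipoxygenase Alox5, helped by its partner Alox5ap, starts the leukotriene branch, which Ltc4s leads towards the cysteinyl leukotrienes known in the lung for airway narrowing and oedema.

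Stretches at the RefSeq start sites of Hpgds, Hpgd and Alox5 are shown because these are the 3 genes whose levels in nonclassical monocytes lay farthest apart between the groups. The sequences are RefSeq's on build GRCm38.p6, read 5′ to 3′ on the gene's strand, with positions counted from the RefSeq start site. For Hpgds the annotations differ: GENCODE vM21 starts the gene farther upstream, so the Hpgds window lies before the RefSeq start but inside the first exon, in the 5' UTR, of the GENCODE transcript, and is kept short for that reason. Capitals mark a PU-box core (GAGGAA, bound by the myeloid factor PU.1) or a GC box (GGGCGG), each searched on both strands, so that the reverse strand reads TTCCTC or CCGCCC.
Hpgds, chr6:65144762-65144791, minus strand, positions -61 to -32: ggcttttaggtgGAGGAAgtggcctctggc
Hpgd, chr8:56294302-56294551, plus strand, positions -250 to -1: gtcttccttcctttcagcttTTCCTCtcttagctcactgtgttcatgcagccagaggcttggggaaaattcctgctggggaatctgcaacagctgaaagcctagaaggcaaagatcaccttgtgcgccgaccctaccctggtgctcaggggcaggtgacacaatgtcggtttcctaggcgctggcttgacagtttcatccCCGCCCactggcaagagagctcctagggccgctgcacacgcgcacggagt
Alox5, chr6:116461179-116461428, minus strand, positions -250 to -1: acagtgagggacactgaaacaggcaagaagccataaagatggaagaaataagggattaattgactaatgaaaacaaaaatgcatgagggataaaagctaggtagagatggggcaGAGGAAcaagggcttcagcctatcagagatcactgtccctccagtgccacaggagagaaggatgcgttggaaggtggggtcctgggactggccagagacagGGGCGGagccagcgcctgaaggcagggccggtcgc
The Hpgds motif lies at position -49, the Alox5 PU-box core at -136 and its GC box at -35, and in Hpgd the PU-box core lies at -230 and the GC box at -50, both on the reverse strand. RefSeq promoter windows of 300 bases (250 before to 50 after the start site) matched 9 of the 10 genes. GAGGAA was found in 7 of those 9 windows and in 28.3% of 32851 mouse promoter windows, and GGGCGG in 5 of the 9 and in 35.7% of all windows. Of the other 4 motifs searched on both strands, the TATA box (TATAAA), the E-box (CACGTG) and the core of the cyclic AMP response element (TGACGT) were each found in 1 of the 9 windows, and in 13.6%, 7.15% and 7.51% of all windows, and the AP-1 site (TGANTCA) in none of the 9 and in 7.81% of all windows. The 2 motifs shown were picked after the sequences had been seen, and a match is a description of letters, not of binding.

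The 6 libraries held 43913245 to 66513826 UMIs, spread over 4687 to 35391 barcodes in AML lung and 3967 to 10057 in normal lung, so the median depth ran from 1067 UMIs per barcode in AML lung 3 to 9381 in AML lung 1. Pairs of libraries shared 2 to 118 barcodes. Of 73095 barcodes, 70292 were used after quality and doublet filters, and 25 of 31 clusters were named by fixed markers; 10.7% of the cells stayed in unnamed clusters. Counts were summed per library and cell class, and levels are CPM, counts per 1000000 UMIs of the class in that library. With a 3' kit, CPM is a molar share and needs no gene length. Free RNA in the droplets gives a few UMIs to cells that do not make a transcript, so levels in T and NK cells are given beside low ones.

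The genes differed in the cell class of their highest mean, though several shared one. Ptgs1, the constitutive cyclooxygenase (ENSMUSG00000047250, chromosome 2, 36230426 to 36252272, plus strand, GENCODE vM21 on GRCm38, as for the other genes), was scarce. Its mean over libraries was highest in endothelial cells at 69.8 ± 40.5 CPM (SD, n = 6) and overlapped the range of late neutrophil precursors, at 31.4 ± 24.4 CPM (SD, n = 3). In nonclassical monocytes Ptgs1 gave 4, 4 and 2 UMIs in AML lung 1, 2 and 3 and 1, 0 and 0 UMIs in normal lung 1, 2 and 3.

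Ptgs2, the inducible cyclooxygenase (ENSMUSG00000032487, chromosome 1, 150100031 to 150108227, plus strand), was mainly a neutrophil transcript among the ranked classes. Basophils or mast cells, too few to be ranked, reached neutrophil levels in normal lung 2 and 3. Ptgs2 averaged 1086 ± 473 CPM in neutrophils (SD, n = 6), and its lowest neutrophil library, at 297 CPM, lay above the highest library of the next ranked class, cDC2, at 121 CPM. Neutrophils held 67.4% ± 18.5 of all Ptgs2 UMIs in AML lungs and 81.5% ± 9.12 in normal lungs (SD, n = 3 each). Ptges, the inducible prostaglandin E synthase (ENSMUSG00000050737, chromosome 2, 30889471 to 30929863, minus strand), was low everywhere. Its highest mean was 21.4 ± 3.57 CPM in alveolar macrophages (SD, n = 6), whose range overlapped that of late neutrophil precursors at 21.4 ± 16.7 CPM (SD, n = 3).

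Hpgds, the haematopoietic prostaglandin D synthase (ENSMUSG00000029919, chromosome 6, 65117293 to 65144908, minus strand), was highest in interstitial macrophages. It reached 155, 170.1 and 70.6 CPM there in AML lung 1, 2 and 3, against 152 CPM in normal lung 3, which alone of the normal libraries held at least 20 such cells. The place of nonclassical monocytes depended on the group. In AML lung they came next at 67.2 CPM, against 32.2 CPM in cDC1 (the cross-presenting dendritic cells), 29.3 CPM in plasmacytoid dendritic cells and 25.9 CPM in B cells. In normal lung they were at 4.57 CPM, below plasmacytoid dendritic cells at 41.9 CPM, cDC1 at 36.2 CPM, B cells at 16.4 CPM and alveolar macrophages at 15.4 CPM. NK cells had the lowest Hpgds mean, 4.12 ± 3.14 CPM (SD, n = 6).

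Hpgd, the dehydrogenase that inactivates prostaglandins (ENSMUSG00000031613, chromosome 8, 56294585 to 56321043, plus strand), was highest in endothelial cells. The mean there was 1240.0 ± 572 CPM (SD, n = 6), with AML lung 2 far below the rest at 231 CPM. The next place differed by group: in AML lung interstitial macrophages had 103 CPM, nonclassical monocytes 94.8 CPM and cDC2 80.4 CPM, whereas in normal lung nonclassical monocytes had 443 CPM and interstitial macrophages of the 1 library with enough cells 298 CPM. B cells were lowest at 2.58 ± 1.77 CPM.

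The receptors differed in place. Ptger2, a receptor for prostaglandin E2 that raises cyclic AMP (ENSMUSG00000037759, chromosome 14, 44988195 to 45003820, plus strand), had its highest mean in alveolar macrophages, 25.3 ± 5.32 CPM, with overlapping values in neutrophils at 16.6 ± 6.63 CPM (SD, n = 6 each). Ptger4, the second cyclic AMP coupled receptor for prostaglandin E2 (ENSMUSG00000039942, chromosome 15, 5206661 to 5244187, minus strand), was highest in mature dendritic cells, 365 ± 143 CPM (SD, n = 4). The other dendritic classes followed with means of 102 to 124 CPM, and endothelial cells were lowest at 19.0 ± 13.2 CPM (SD, n = 6).

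In the leukotriene branch, Alox5 (ENSMUSG00000025701, chromosome 6, 116410077 to 116461178, minus strand) averaged 150 ± 54.1 CPM in late neutrophil precursors (SD, n = 3), 144 ± 63.2 CPM in neutrophils and 124 ± 23.5 CPM in alveolar macrophages (SD, n = 6 each). These 3 classes overlapped each other, and the alveolar macrophage libraries all lay above the next class. Alox5ap, the activating partner of Alox5 (ENSMUSG00000060063, chromosome 5, 149264767 to 149288153, plus strand), averaged 1072 ± 133 CPM in classical monocytes, 1051 ± 70.8 CPM in late neutrophil precursors and 882 to 1047 CPM in the single libraries of neutrophils, above all libraries of cDC1 at 616 ± 94.4 CPM. Ltc4s, the leukotriene C4 synthase (ENSMUSG00000020377, chromosome 11, 50236461 to 50238616, minus strand), was an alveolar macrophage transcript at 330.0 ± 62.1 CPM (SD, n = 6). Its lowest alveolar macrophage library, at 261 CPM, lay above the highest library of the next class, group 2 innate lymphoid cells, at 62.9 CPM. Alveolar macrophages held 79.8% ± 7.91 of Ltc4s UMIs in AML lungs and 92.1% ± 2.41 in normal lungs (SD, n = 3 each). These orders are descriptions, because the classes were cut from the same cells, though these 10 genes and the other pathway genes were kept out of the clustering.

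**Figure D1:**
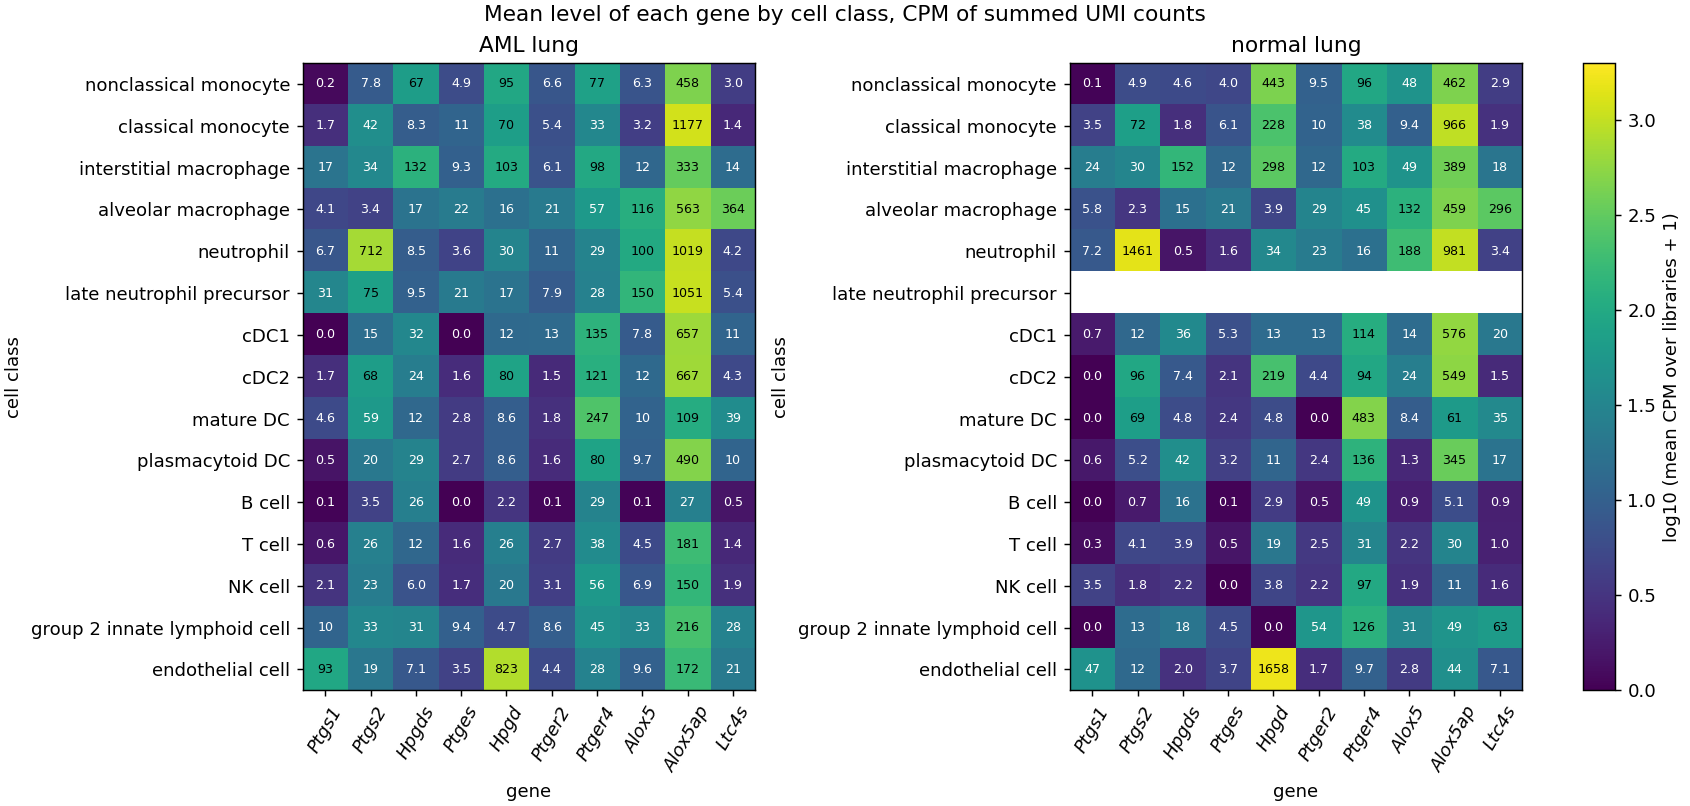
Mean level of each gene (columns) by cell class (rows) in AML lung (left) and normal lung (right), in CPM averaged over libraries with at least 20 cells of the class; rows left white had no such library. Ptgs2 stands out in neutrophils, Ltc4s in alveolar macrophages and Hpgd in endothelial cells in both groups.

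Nonclassical monocytes, the patrolling monocytes that lack Ly6C, differed between the groups in several of these genes. In AML lung they had more Hpgds and less Hpgd and Alox5 than in normal lung, while Alox5ap, Ptger4, Ptges and Ltc4s overlapped. The class held 2281, 5094 and 5329 cells in AML lung 1, 2 and 3 and 362, 655 and 923 cells in normal lung 1, 2 and 3. AML cells lay mostly in cluster 0 (AML lung 1 and 2) or cluster 1 (AML lung 3) and normal cells mostly in cluster 12.

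Hpgds had 58.4, 108 and 34.9 CPM in AML lung 1, 2 and 3, against 3.27, 4.53 and 5.92 CPM in normal lung 1, 2 and 3. All AML libraries lay above all normal ones, and AML lung 2 was the highest. The means were 67.2 ± 37.4 CPM in AML lungs and 4.57 ± 1.33 CPM in normal lung (SD, n = 3 each), a fitted log2 change of 3.92 (SE 0.45). For Hpgds in T cells the values were 2.24, 21.3 and 11.5 CPM in AML lungs and 3.03, 5.27 and 3.55 CPM in normal lung, and in NK cells 2.05, 8.25 and 7.74 CPM in AML lungs and 0.614, 3.32 and 2.76 CPM in normal lung. The AML nonclassical monocytes thus exceeded the T and NK cells of every AML library. Those of normal lung sat near the level of T cells, a level not told apart from background.

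The share of nonclassical monocytes with an Hpgds UMI, after each cell had been thinned to 2000 UMIs, was 10.1%, 17.2% and 6.26% in AML lung 1, 2 and 3, against 0.279%, 0.634% and 0.714% in normal lung 1, 2 and 3. Without thinning the shares were 28.01%, 29.9% and 3.68% in AML lungs and 2.49%, 2.29% and 2.49% in normal lung, at median depths of 10189, 5023 and 892 UMIs and of 9929, 6630 and 3904 UMIs. Thinning left out 4786 of the 5329 cells of AML lung 3, 823 cells of AML lung 2 and 31 of AML lung 1, and 4, 24 and 223 cells of normal lung 1, 2 and 3. In T cells thinned alike, 0%, 1.98% and 2.48% had an Hpgds UMI in AML lung and 0.431%, 1.53% and 0.559% in normal lung, at median depths of 7976, 2726 and 1019 UMIs and of 8212, 4821.5 and 2323 UMIs. The 0 of AML lung 1, over 346 cells, allows a share of up to 0.867% (3 counts, counting error only).

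Hpgd ran the other way, with 105, 27.1 and 152 CPM in AML lung 1, 2 and 3, against 412, 387 and 529 CPM in normal lung 1, 2 and 3. No AML library reached the lowest normal one. The means were 94.8 ± 63.1 CPM in AML lungs and 443 ± 75.8 CPM in normal lung (SD, n = 3 each), a log2 change of -2.19 (SE 0.51). Hpgd in T cells was 5.23, 4.69 and 67.8 CPM in AML lungs and 0.505, 5.27 and 52.6 CPM in normal lung. The thinned share of nonclassical monocytes with an Hpgd UMI was 15.1%, 4.19% and 16.6% in AML lungs and 39.1%, 36.8% and 48.6% in normal lung. In T cells that share was 0.578%, 0.617% and 9.41% in AML lungs and 0%, 1.09% and 2.51% in normal lung, and the 0 of normal lung 1, over 232 cells, allows up to 1.29%. T cells of AML lung 3 thus showed Hpgd at a share of the same order as its nonclassical monocytes.

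Alox5 had 7.66, 3.53 and 7.63 CPM in AML lung 1, 2 and 3, against 49.8, 55.8 and 39.5 CPM in normal lung 1, 2 and 3. The groups were apart by several times their spread, at 6.27 ± 2.38 CPM in AML lungs and 48.4 ± 8.21 CPM in normal lung (SD, n = 3 each), a log2 change of -2.95 (SE 0.30). For Alox5 the T cells of AML lung 3, at 12.4 CPM, exceeded its nonclassical monocytes, whose level there is not told apart from background. T cells of AML lung 1 and 2 had 0 and 1.17 CPM, and those of normal lung 1.01, 0.702 and 4.88 CPM.

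Its partner Alox5ap had 374, 521 and 478 CPM in AML lung, against 383, 503 and 499.9 CPM in normal lung, so the groups overlapped fully. Ptger2 had 6.77, 4.98 and 7.96 CPM in AML lung, against 10.1, 10.3 and 8.29 CPM in normal lung, narrowly without overlap (log2 change -0.53, SE 0.24). Ptger4 had 68.5, 62.3 and 98.9 CPM in AML lung, against 75.99, 92.4 and 118 CPM in normal lung, with overlap. Ptgs2 stayed between 2.87 and 12.99 CPM in AML lungs and between 2.26 and 6.63 CPM in normal lung, Ptges between 4.29 and 6.13 CPM and between 1.89 and 6.79 CPM, and Ltc4s between 2.14 and 4.01 CPM and between 2.37 and 3.77 CPM in the same order of groups.

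Of the 9 genes that passed the low-count filter in this class, the libraries did not overlap for 4 (Hpgds, Hpgd, Ptger2 and Alox5), beside 30.2% of all 10659 genes tested there. At an adjusted p under 0.05 in edgeR, 6.60% of those genes were called. Nothing is read from the members' count, since the contrast was in view when they were chosen. Over 15 alternative settings the log2 change stayed between 3.40 and 4.21 for Hpgds, between -2.71 and -1.74 for Hpgd and between -3.19 and -2.62 for Alox5.

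Markers of cells that are rich in these transcripts moved with the groups in nonclassical monocytes as follows. The 8 markers of nonclassical monocytes themselves summed to 6846, 5850 and 5487 CPM in AML lungs and 6052, 5713 and 5674 CPM in normal lung. The summed level of the 6 endothelial markers was 1384, 1219 and 1222 CPM in AML lungs and 314.5, 246 and 342 CPM in normal lung. Of these markers Pecam1, an adhesion molecule that monocytes also carry, gave 1381, 1217 and 1217 CPM in AML lungs and 312, 239.9 and 339.8 CPM in normal lung, while the other 5 lay between 0 and 2.26 CPM in every library. The part of endothelial RNA in the Hpgd values was not tested. The 8 interstitial macrophage markers summed to 330.4, 303 and 737 CPM in AML lungs and 2364, 1595 and 1385 CPM in normal lung, mostly from Apoe, a lipid carrier. The complement subunits among these markers were near 0, and C1qb and C1qc ran opposite to the sum: C1qb had 2.86, 2.42 and 6.01 CPM in AML lungs and 0, 1.85 and 0.474 CPM in normal lung, C1qc 0.403, 0.622 and 1.95 CPM and 0.252, 0 and 0.237 CPM, and C1qa 0.444, 0.242 and 2.11 CPM and 1.01, 0.412 and 0.237 CPM in the same order. The part of interstitial macrophage RNA in the Hpgds values was not tested.

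**Figure D2:**
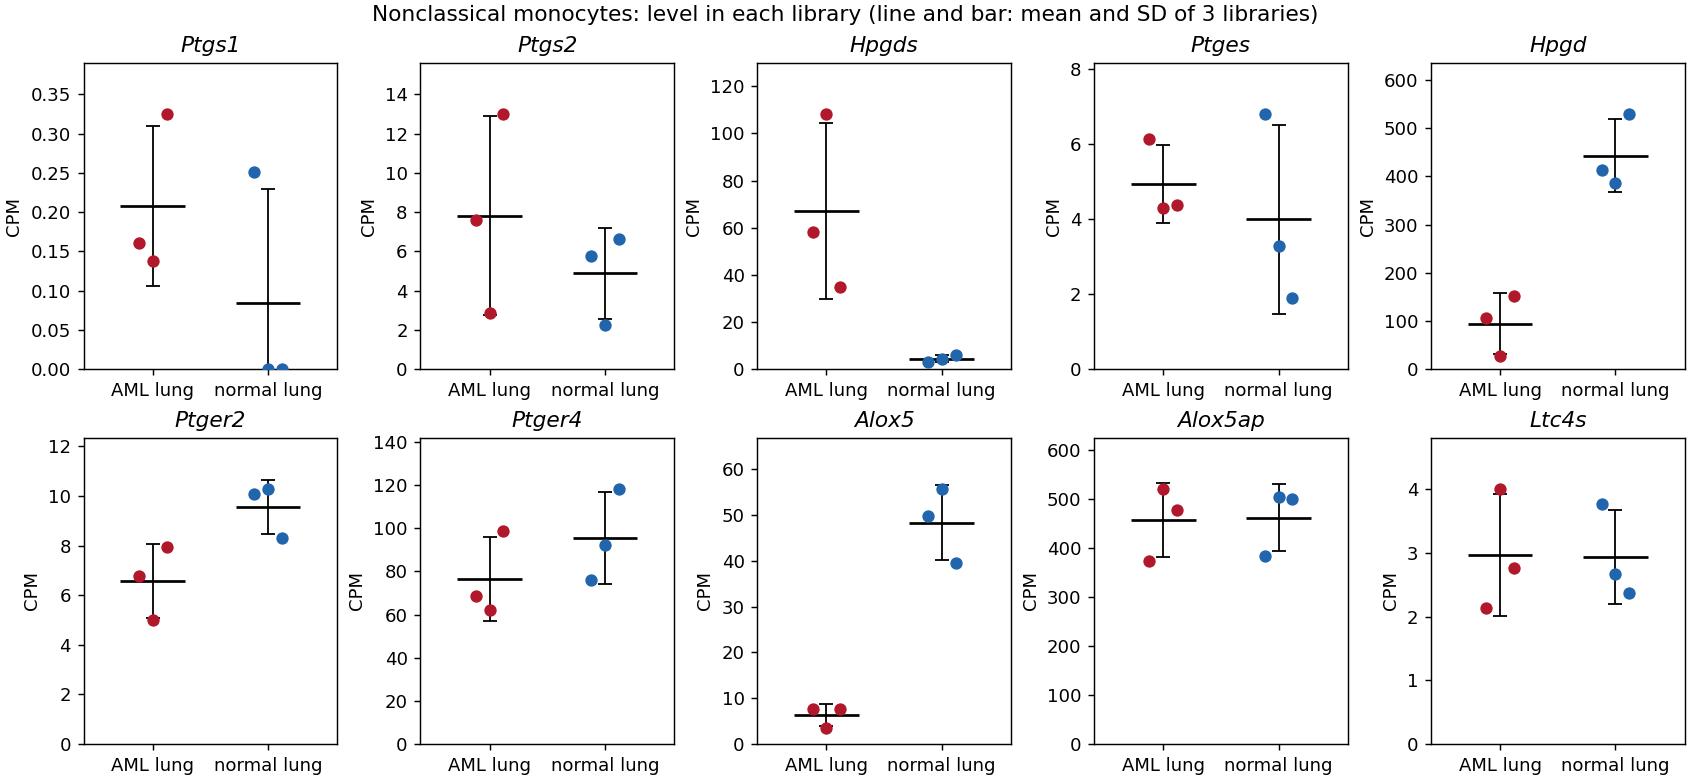
Level of each of the 10 genes in nonclassical monocytes, in CPM, with 1 point per library; the line is the mean and the bar the SD of 3 libraries of AML lung (red, left) or normal lung (blue, right). Hpgds lies between 34.9 and 108 CPM in AML lungs and under 6 CPM in normal lung, and Hpgd and Alox5 lie lower in all AML libraries than in any normal one.

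Within the class, Hpgds and Hpgd were divided differently. In cells with at least 1 UMI of Spic, the transcription factor of red pulp macrophages, Hpgds had 89.97, 189 and 52.9 CPM in AML lung 1, 2 and 3, against 37.3, 81.2 and 33.2 CPM in cells without a Spic UMI. That direction was the same in each AML library, but cells with more UMIs are likelier to show a Spic UMI. Among cells of at least 2000 UMIs, Hpgds had 89.99, 188 and 61.1 CPM in the Spic-positive cells and 37.3, 80.8 and 30.6 CPM in the Spic-negative cells of AML lung 1, 2 and 3. In normal lung 1 and 3 the Spic-positive cells had 9.33 and 6.70 CPM of Hpgds and the Spic-negative ones 2.74 and 5.89 CPM, from 24 and 30 Spic-positive cells. A link between Spic and Hpgds in a cluster of these cells was known beforehand, so this is a description.

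Hpgd differed less across the same gate, with 103, 23.7 and 140 CPM in Spic-positive and 107, 28.2 and 153 CPM in Spic-negative cells of AML lung 1, 2 and 3. Among cells of at least 2000 UMIs, AML lung 3 had 85.5 CPM of Hpgd in Spic-positive and 131 CPM in Spic-negative cells. Among the clusters, cluster 12, which held most normal nonclassical monocytes, had 191, 165 and 190.0 CPM of Hpgd in AML lung 1, 2 and 3, against 417, 397 and 547 CPM in normal lung 1, 2 and 3. The same cluster had 17.1, 39.8 and 10.7 CPM of Hpgds in AML lung and 2.39, 3.77 and 5.08 CPM in normal lung. T cells of AML lung 3 had 11.5 CPM of Hpgds, above the 10.7 CPM of its cluster 12 cells. That level is not told apart from background, so within this cluster the Hpgds gap rests on AML lung 1 and 2. Alox5 in cluster 12 was 22.5, 0 and 9.77 CPM in AML lung, from 150, 41 and 531 cells, against 51.5, 58.0 and 39.5 CPM in normal lung.

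Cells of this class with an Hpgds UMI had less Hpgd than those without one in the AML libraries, at 64.96, 21.5 and 88.4 CPM against 124, 30.4 and 156 CPM. Cells with an Hpgds UMI are also the deeper ones, and the part of depth in this was not tested.

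**Figure D3:**
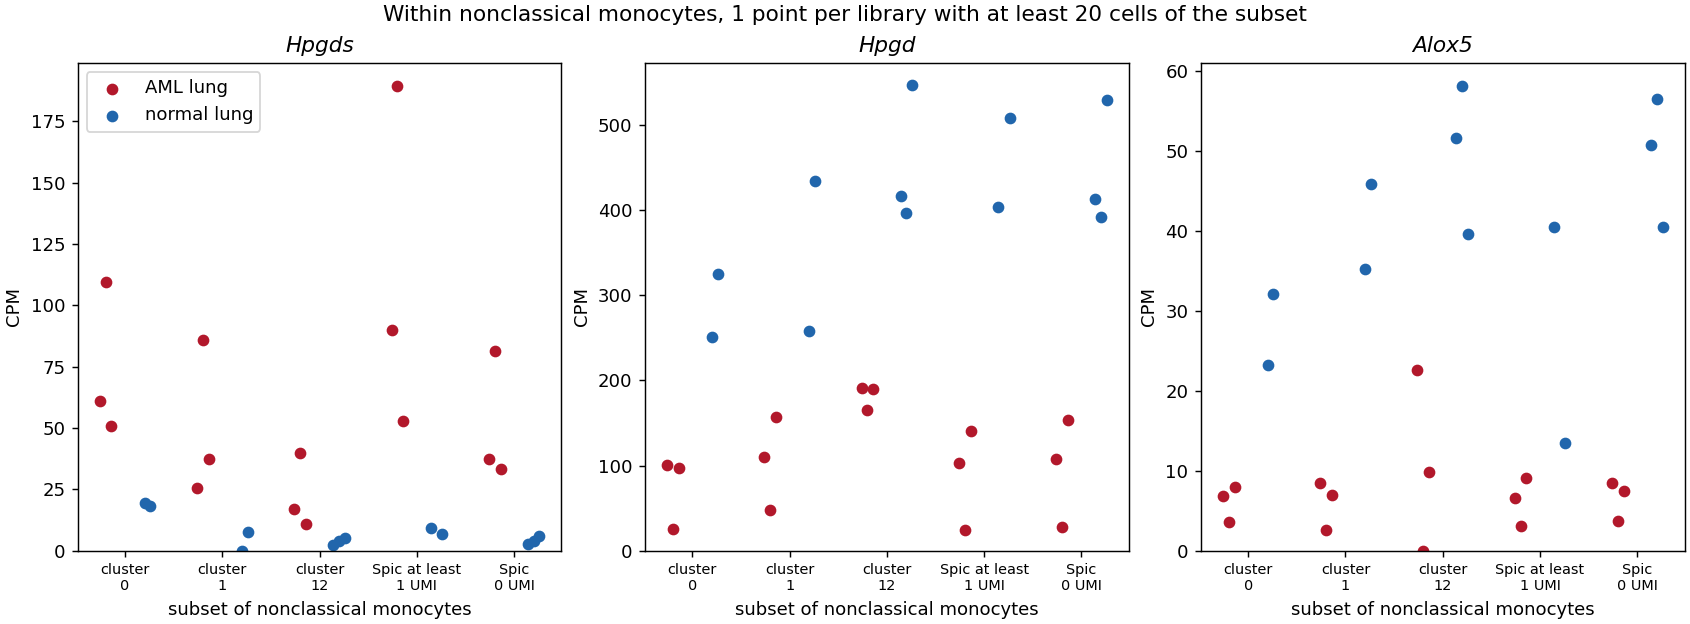
Hpgds, Hpgd and Alox5 in subsets of nonclassical monocytes, in CPM, with 1 point per library that held at least 20 cells of the subset (AML lung red, normal lung blue). Hpgds is higher in Spic-positive than Spic-negative cells of every AML library, whereas Hpgd is lower there by a smaller margin. The gates shown are not matched for depth.

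Outside nonclassical monocytes, AML lung was set against normal lung in 11 classes to ask whether these genes differed in other leukocytes and in endothelial cells. Of 110 gene and class pairs, 62 passed the low-count filter and 1 passed the test (edgeR quasi-likelihood, Benjamini-Hochberg over all genes of the class, adjusted p under 0.05). That is 1.61% of the pairs tested, beside 0.271% of all 100415 pairs of genes and classes. At an unadjusted p under 0.05 there were 17 pairs, 7 higher and 10 lower in AML lung, or 27.4% of the 62, beside 12.4% of all pairs. Classical monocytes alone gave 7 of these 17, 3 higher and 4 lower, from 8 members tested. In that class 21.5% of all genes had an unadjusted p under 0.05 (edgeR). DESeq2 called 4 pairs. It also called more of all genes: in classical monocytes 326 higher and 258 lower of 10334, against 152 and 114 in edgeR.

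The 1 call was Hpgds in classical monocytes, the Ly6C-high monocytes of blood and inflamed tissue. In this class 2.57% of all genes were called, and 1 of the 8 members tested. Hpgds had 7.78, 7.34 and 9.85 CPM in AML lung 1, 2 and 3, against 0.959, 2.50 and 1.88 CPM in normal lung 1, 2 and 3. In this class 27.5% of all genes had libraries without overlap between the groups, and so did Hpgds, at 8.32 ± 1.34 CPM in AML lungs and 1.78 ± 0.773 CPM in normal lung (SD, n = 3 each), a log2 change of 2.23 (SE 0.37, adjusted p = 0.0202, edgeR). In AML lung 2 this level was below that of T cells (21.3 CPM) and NK cells (8.25 CPM) and is not told apart from background. In each normal library the level of classical monocytes also lay below that of T cells given above. The part of free RNA in these values was not tested. In AML lung 3 it lay between NK cells (7.74 CPM) and T cells (11.5 CPM), and in AML lung 1 above both (2.05 and 2.24 CPM). The call was lost when normal lung 1, 2 or 3 was left out (adjusted p = 0.118, 0.0707 and 0.0760) and under 3 ways of redrawing the class (adjusted p from 0.0619 to 0.107); over all 15 alternatives the adjusted p ran from 1.77e-06 to 0.118.

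Hpgd in classical monocytes just missed the threshold. It had 83.8, 29.5 and 96.0 CPM in AML lung 1, 2 and 3, against 207, 176 and 300.4 CPM in normal lung 1, 2 and 3, without overlap (log2 change -1.71, SE 0.38, adjusted p = 0.0505, edgeR), and 7 of 15 alternatives called it. Alox5 had 5.19, 0.931 and 3.34 CPM in AML lungs and 10.1, 11.5 and 6.72 CPM in normal lung, also without overlap (log2 change -1.78, SE 0.50, adjusted p = 0.0862). Ptger2 averaged 5.42 ± 0.924 CPM in AML lungs and 10.2 ± 1.62 CPM in normal lung (SD, n = 3 each; log2 change -0.87, SE 0.24, adjusted p = 0.0847). For Alox5, T cells of the same libraries had 0, 1.17 and 12.4 CPM in AML lung, above the values of classical monocytes in AML lung 2 and 3. Those values are not told apart from background.

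Ptgs2 averaged 41.7 ± 16.1 CPM in AML classical monocytes and 72.2 ± 16.3 CPM in normal ones (SD, n = 3 each). In the same order of groups, the libraries of Ptges lay at 6.68 to 14.8 CPM and 5.28 to 7.24 CPM, and those of Alox5ap at 1099 to 1221 CPM and 904 to 1053 CPM. The adjusted p was 0.149 for Ptgs2, 0.206 for Ptges and 0.209 for Alox5ap (edgeR). For Ptgs2, T cells of AML lung 1, 2 and 3 had 0, 8.90 and 70.5 CPM (TMM-scaled). Classical monocytes of those libraries had 31.5, 32.9 and 62.2 CPM on that scale. In classical monocytes of AML lung 3 the Ptgs2 level is thus not told apart from background. Markers of other cells were present in this class: the neutrophil markers summed to 305, 908 and 1002 CPM in AML lungs and 219, 196 and 223 CPM in normal lung, the nonclassical monocyte markers to 2386, 1665 and 2039 CPM and 1743, 1751 and 1784 CPM, and the immature myeloid markers, mainly Prtn3, to 181, 177 and 79.7 CPM and 16.8, 17.7 and 18.0 CPM in the same order of groups. Their part in these differences was not tested. Cluster 2 held 4015 of the classical monocytes of AML lung 3, and cluster 11 most of those of AML lung 1 and 2 and of the 3 normal libraries (such counts per cluster include called doublets).

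**Figure D4:**
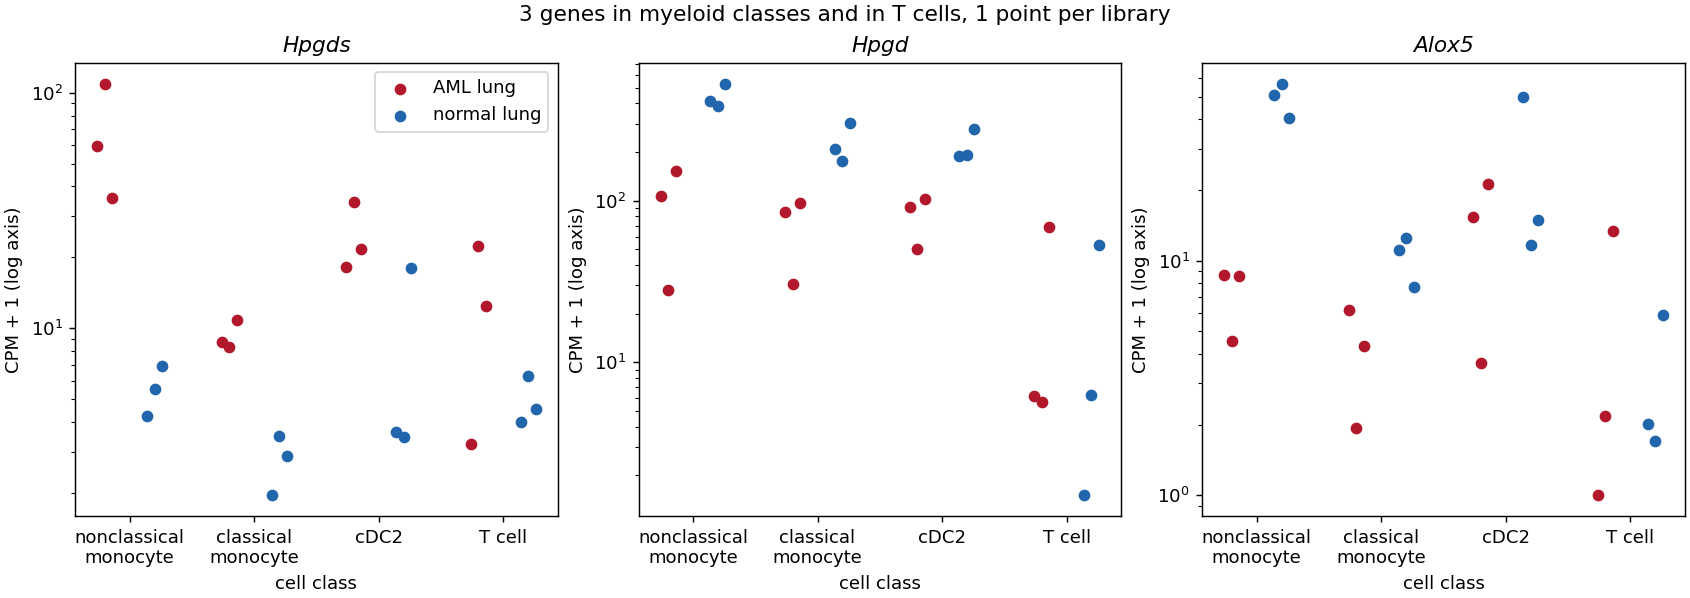
Hpgds, Hpgd and Alox5 in nonclassical monocytes, classical monocytes, cDC2 and T cells, as CPM plus 1 on a log axis, 1 point per library (AML lung red, left of normal lung blue). Hpgds in classical monocytes of AML lung, at 7.34 to 9.85 CPM, falls within the range of its T cells, 2.24 to 21.3 CPM.

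In neutrophils no member passed the test, where 0.0249% of all genes were called (2 of 8023; 15.8% had an unadjusted p under 0.05, and 1 of 7 members did). Ptgs2, their main member, had 1010.0, 828 and 297 CPM in AML lung 1, 2 and 3, against 1488, 1439 and 1456 CPM in normal lung 1, 2 and 3. The normal libraries lay within a narrow range and all AML libraries lay below them, AML lung 3 farthest (log2 change -1.08, adjusted p = 0.317, edgeR; from 0.0476 to 0.638 over the alternatives). Alox5 had 159, 80.1 and 60.1 CPM in AML lung, against 219, 199 and 147 CPM in normal lung, with overlap (log2 change -0.98, SE 0.43, adjusted p = 0.317). Ptger2 had 12.4, 9.76 and 9.67 CPM in AML lung, against 22.4, 22.3 and 23.0 CPM in normal lung, without overlap, like 20.6% of all genes there (log2 change -1.22, SE 0.29, adjusted p = 0.169, edgeR). Alox5ap was at 995 to 1041 CPM in AML lungs and 882 to 1047 CPM in normal lung.

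The neutrophil markers moved beside these values, summing to 98720, 75040 and 35180 CPM in AML lungs and 71670, 74190 and 61570 CPM in normal lung, lowest in AML lung 3, the library with the lowest Ptgs2. Nonclassical monocyte markers in neutrophils summed to 1012, 1541 and 2678 CPM in AML lungs and 896, 653.5 and 934 CPM in normal lung, highest in that same library. Of its neutrophils 3945 lay in cluster 5, which held 18 and 218 cells of AML lung 1 and 2 and 29, 30 and 94 of normal lung 1, 2 and 3, while cluster 9 held most neutrophils of the other libraries. Late neutrophil precursor markers summed to 2041, 1456 and 1099 CPM in AML lungs and 799, 970.0 and 691 CPM in normal lung. Late neutrophil precursors had 60.8, 120.2 and 43.7 CPM of Ptgs2 in the 3 AML libraries. Their part in the Ptgs2 values was not tested. Without AML lung 3 the log2 change was -0.63, against -1.08 with it.

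Alveolar macrophages, which take up surfactant and held most Ltc4s, had 422, 387 and 282 CPM of Ltc4s in AML lung 1, 2 and 3, against 261, 316 and 312 CPM in normal lung 1, 2 and 3, with overlap (adjusted p = 0.570, edgeR). Their Alox5 was 145, 119 and 84.7 CPM in AML lungs and 144, 139 and 113 CPM in normal lung, and their Alox5ap 514, 668 and 508 CPM and 436, 506 and 434 CPM in the same order. Ptger2 averaged 21.1 ± 4.04 CPM in AML lungs and 29.4 ± 1.495 CPM in normal lung, without overlap, like 16.9% of all genes there (SD, n = 3 each; log2 change -0.49, SE 0.16, adjusted p = 0.465, edgeR). The alveolar macrophage markers themselves did not overlap either, summing to 9354, 8368 and 7434 CPM in AML lungs and 12450, 11090 and 9830 CPM in normal lung. Cluster 3 held 3842 of the alveolar macrophages of AML lung 3, and cluster 7 the largest share of those of each other library. Their part in the Ptger2 values was not tested. edgeR called 0 of all 11940 genes tested in this class, with 1232 at an unadjusted p under 0.05, and 1 of the 10 members was among the latter.

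In B cells Ptger4 had 27.5, 17.3 and 41.4 CPM in AML lung 1, 2 and 3, against 46.2, 53.4 and 48.1 CPM in normal lung 1, 2 and 3. The groups did not overlap, as for 16.2% of all genes there, and the test fell short (log2 change -1.13, SE 0.21, adjusted p = 0.0583, edgeR, where 0.0383% of genes were called). AML lung 3 gave 149 B cells, and the adjusted p ran from 2.66e-06 to 0.835 over the alternatives, with changes of -0.28 to -0.42 when the cells were clustered or named otherwise. Unnamed cluster 6, whose best match was B cells with plasma cells second, held 39, 635 and 2572 cells of AML lung 1, 2 and 3. It held 44, 107 and 570 cells of normal lung 1, 2 and 3, and its part in the Ptger4 values was not tested. In mature dendritic cells Ptger4 had 196 and 297 CPM in AML lung 2 and 3, against 497 and 469 CPM in normal lung 2 and 3, the libraries with enough cells, and 32.8% of all genes there did not overlap (log2 change -1.01, SE 0.31, adjusted p = 0.997, edgeR).

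In cDC2, the dendritic cells that present antigen to helper T cells, Hpgd had 90.7, 49.4 and 101 CPM in AML lung 1, 2 and 3, against 189, 192 and 276 CPM in normal lung 1, 2 and 3, without overlap, like 17.2% of all genes there (log2 change -1.45, SE 0.28, adjusted p = 0.211, edgeR; DESeq2 called it, and the adjusted p ran from 2.01e-08 to 0.624 over the alternatives). Nonclassical monocyte markers in cDC2 summed to 1067, 1319 and 1915 CPM in AML lungs and 1592, 2359 and 1615 CPM in normal lung. The cDC2 markers themselves summed to 1338, 729.9 and 928.5 CPM and to 1119, 749.4 and 1500 CPM in the same order. The part of nonclassical monocyte RNA in the cDC2 Hpgd values was not tested. In endothelial cells Hpgd had 1264, 231 and 974 CPM in AML lung 1, 2 and 3, from 20, 75 and 1078 cells, against 1705, 1727 and 1541 CPM in normal lung 1, 2 and 3, from 98, 345 and 433 cells. All AML libraries were lower, and 22.4% of all genes there did not overlap (log2 change -1.01, SE 0.52, adjusted p = 0.378, edgeR). The endothelial markers summed to 4539, 3893 and 3054 CPM in AML lungs and 5495, 6043 and 4662 CPM in normal lung, and the nonclassical monocyte markers to 2561, 1292 and 1573 CPM and 797, 778 and 821 CPM in the same order; their part in the Hpgd values was not tested. Hpgd thus lay lower in every AML library than in any normal one in nonclassical monocytes, classical monocytes, cDC2 and endothelial cells. The last 3 did not pass the test, and these classes come from the same libraries. Libraries did not overlap for 30.2%, 27.5%, 17.2% and 22.4% of all genes there, in that order. In B cells, T cells, alveolar macrophages, neutrophils and plasmacytoid dendritic cells, the other classes tested, the Hpgd libraries overlapped. The log2 change in those classes ran from -1.72 in B cells to 2.09 in alveolar macrophages.

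Alox5ap was also counted in lymphocytes. In T cells it had 21.3, 94.2 and 428 CPM in AML lung 1, 2 and 3, against 8.58, 4.92 and 76.1 CPM in normal lung 1, 2 and 3, and in NK cells 1.54, 50.3 and 399 CPM against 3.07, 3.98 and 25.2 CPM. In both groups replicate 3, the library with the lowest median UMI count, was highest, and no test was passed (adjusted p = 0.514 in T cells and 0.339 in NK cells, edgeR).

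**Figure D5:**
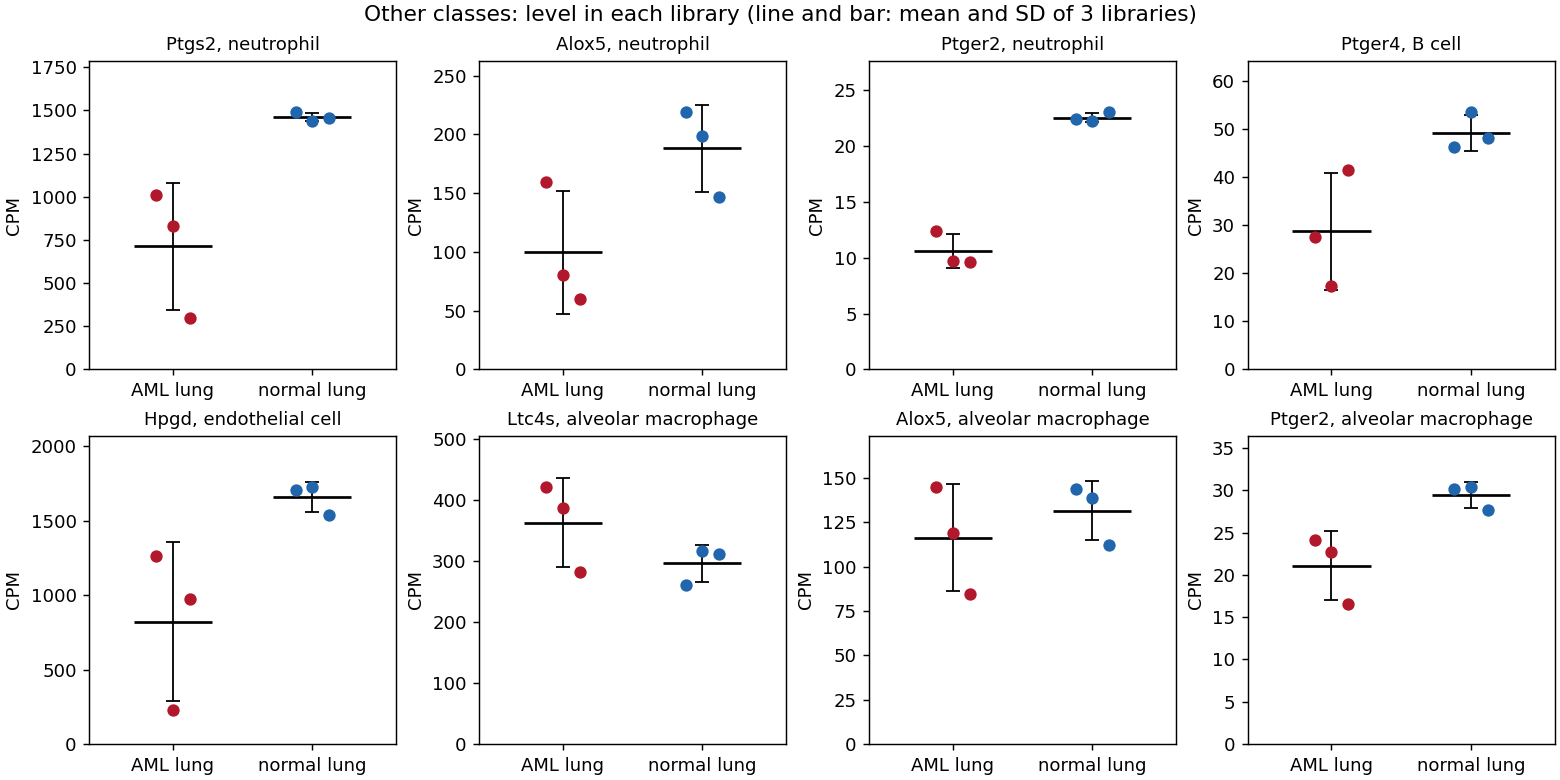
Level in CPM of 8 gene and class pairs outside nonclassical monocytes, 1 point per library; the line is the mean and the bar the SD of 3 libraries of AML lung (red, left) or normal lung (blue, right). Ptgs2 and Ptger2 in neutrophils, Ptger4 in B cells, Hpgd in endothelial cells and Ptger2 in alveolar macrophages lie lower in all AML libraries, and none passed the test.

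Of 45 other genes of these pathways, 189 gene and class pairs were tested outside nonclassical monocytes, and 2 were called, 2 higher and 0 lower in AML lung, or 1.06% beside 0.271% of all pairs. The median log2 change over the 189 pairs was 0.04. Both calls were in classical monocytes, 2 of the 21 listed genes tested there, beside 2.57% of all genes of that class. The median log2 change there was 0.26 over the 21 listed genes tested, against 0.01 over all genes.

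Ptgr1, a reductase that inactivates prostaglandins and leukotriene B4, had 17.8, 24.1 and 13.2 CPM in AML lung 1, 2 and 3, against 8.15, 6.49 and 7.79 CPM in normal lung 1, 2 and 3 (log2 change 1.30, adjusted p = 0.0321, edgeR; 2.81e-05 to 0.148 over the alternatives). Pla2g7, the phospholipase that breaks down platelet-activating factor, had 394, 356 and 389.9 CPM in AML lung, against 254, 270.5 and 261 CPM in normal lung (log2 change 0.54, adjusted p = 0.0450; 0.00788 to 0.201). Ptgr1 in T cells was at 0, 2.34 and 5.12 CPM in AML lungs and 0, 0 and 0.222 CPM in normal lung, and Pla2g7 at 10.1, 73.1 and 227 CPM and 9.09, 3.86 and 40.2 CPM. Each call was lost without normal lung 1, 2 or 3, without AML lung 1, and with classes set cell by cell from marker scores. That of Ptgr1 was also lost without AML lung 2 (adjusted p = 0.0610, edgeR). That of Pla2g7 was also lost at resolution 2 and with the listed genes allowed among the variable genes. Of 15 alternatives, 9 called Ptgr1 and 8 called Pla2g7.

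In nonclassical monocytes, where no test is given, Pla2g7 had 689.7, 478 and 578 CPM in AML lung 1, 2 and 3, against 338, 289 and 403 CPM in normal lung 1, 2 and 3. Fpr2, a receptor for formylated peptides and the lipid mediator lipoxin A4, had 95.2, 82.5 and 68.4 CPM in AML lung, against 20.1, 17.7 and 20.6 CPM in normal lung, and its T cells had 2.24, 11.7 and 25.02 CPM and 0, 0.702 and 1.78 CPM. Neither gene's libraries overlapped between the groups, as for 30.2% of all 10659 genes tested in this class. Both genes were added here after their values were seen.

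The genes most like each member were sought by Pearson's r of log2(CPM + 1) over 79 sums of a library and a class, among 9590 genes; the sums share libraries and classes, so r is a description. Alox5ap was most like Nfam1 (r = 0.93), Ltc4s most like Cidec and Slc9a4 (r = 0.90 each), and Alox5 most like C5ar1 and Plk3 (r = 0.85 each). Hpgd was most like Ace (r = 0.85) and Thbd (r = 0.82). Ace is one of the markers that name nonclassical monocytes, whereas Hpgd itself had its highest mean in endothelial cells. Ptgs2 was most like Il1r2 (r = 0.84), followed by Ptgs2os2 (r = 0.83), a transcript opposite Ptgs2. How well the reads of Ptgs2os2 were told apart from those of Ptgs2 was not tested. Ptges was most like Chil3 (r = 0.82), Ptger4 most like Rgs1 (r = 0.80), Ptgs1 most like Ica1 (r = 0.80) and Ptger2 most like another member, Alox5 (r = 0.73). Hpgds had no close match, with Slamf9 first at r = 0.64.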

How the data were processed

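UMI counts per gene and barcode were deposited by the authors as whole numbers, not normalized, for 32285 genes in 6 libraries; per the submitters' processing notes they were made with Cell Ranger 7.0.0 on mm10. Cells with at least 200 genes, 500 UMIs and under 10% mitochondrial UMIs were kept (71634 of 73095), and 1342 doublets called with Scrublet were left out; its own threshold called too few cells in AML lung 2 and 3 and normal lung 3, where the median of the others was used. Cells were clustered with scanpy 1.11.5 and leidenalg 0.10.2 (2000 variable genes without the 57 listed genes, 30 components, 15 neighbours, resolution 1). Clusters were named by markers of 24 types, compared within each library; that rule, a second-type ratio of 0.6 and the Scrublet threshold were chosen after the clusters or calls had been seen. Raw counts were summed per library and class of at least 20 cells and compared by edgeR 4.0.16 under R 4.3.3 (TMM, filterByExpr, quasi-likelihood test), adjusted over all genes of a class at 0.05; shares of genes without overlap use TMM-scaled CPM, printed levels plain CPM; DESeq2 1.42.0 was an alternative. The test was checked on simulated data. Libraries of a group differed by far more than sampling noise (chi-square per degree of freedom 39.3 to 159.4), so each counted as 1 sample. Members, lists and tests were chosen with earlier results of these data known. Named were all 10 members in every class, pathway genes past the threshold in a tested class, and 3 likest genes per member (mean of at least 5 CPM), of which the first 1 or 2 are printed; Fpr2 and Pla2g7 in nonclassical monocytes were added after their values were seen. Of 47 pathway genes listed, 45 were used.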

Additional observations from a re-analysis of the deposited data

How the results depend on the processing

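In nonclassical monocytes the direction of Hpgds, Hpgd and Alox5 was the same under all 15 alternatives run, and 3 to 6 members were without overlap between groups, against 4 as reported. The count of member and class pairs called elsewhere, 1, rested on the settings: it was 11 with no low-count filter, 4 with DESeq2, 3 with a stricter cell filter, 2 with doublets kept, 0 with cells named by their own marker score, 0 at resolution 2, and 0 to 5 when 1 library was left out. The pathway count, 2, became 19, 8, 4 and 6 under the first 4 of these, 1 at resolution 2, 1 with the listed genes allowed among the variable genes, and 0 to 6 when 1 library was left out. Calls over all genes moved as well, so the members' counts alone are not read. In classical monocytes as reported, 152 genes were higher and 114 lower of 10334. With no low-count filter the numbers were 704 and 527 of 19787, and with DESeq2 326 and 258 of 10334. A stricter cell filter gave 174 and 134 of 10332, and naming by own score 82 and 45 of 9994. In neutrophils, keeping doublets gave 92 and 54 of 8417, against 2 and 0 of 8023 as reported. Hpgd in B cells, lower in AML lung as fitted (log2 change -1.72, not called), was higher with cells named by own score (1.67), at resolution 2 (1.88) and with the listed genes allowed (1.35); the cause was not tested. For the 10 members the class of highest mean was kept for 8 to 10.

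Replicate numbers are shared by both groups, but by the rule that every pair's correlation exceeds 0.1 they were not taken to pair the samples. Deviations of same-numbered samples correlated at 0.278, 0.042 and 0.252 in nonclassical monocytes, 0.254, 0.028 and 0.183 in classical monocytes, 0.626, -0.052 and 0.631 in alveolar macrophages, 0.223, -0.170 and 0.508 in neutrophils and 0.29, -0.204 and -0.058 over all cells. Replicate 2 missed the rule in each of these, and not every sample was closest to its own number. With the number as a block, 7 member pairs and 14 pathway pairs were called. The block also changed the calls over all genes. In T cells 282 were higher and 15 lower of 10513, and in endothelial cells 273 and 97 of 9769, against 0 without the block. In neutrophils 1 was higher and 0 lower of 8023, against 2 and 0 without it.

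Depth limits Ptgs1, Ptges and Ltc4s in most classes, where a library gave a handful of UMIs, and the p-values rest on 3 libraries a group.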

Other observations

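4 classes held too few cells for a comparison, and their values are given as they stand. The 19 basophils or mast cells, rare granular cells known for histamine and leukotriene release, came from AML lung 3 (5 cells) and normal lung 2 and 3 (8 and 6 cells). Ptgs2 gave 1 UMI of 5628 in AML lung 3, against 47 UMIs of 25428 and 28 of 18801 in normal lung 2 and 3, or 178 CPM against 1848 and 1489 CPM; the last 2 are as high as in neutrophils. Alox5 gave 2 UMIs in AML lung 3 and 9 and 8 UMIs in normal lung 2 and 3, or 355 CPM and 354 and 426 CPM. Alox5ap gave 10 UMIs and 16 and 22 UMIs in the same order. Hpgds, Ltc4s and the other 5 members gave 0 UMIs in these cells, which at 3 counts allows up to 533 CPM in AML lung 3 and up to 118 and 160 CPM in normal lung 2 and 3.

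Late neutrophil precursors, granulocytes still making secondary granules, were found as 72, 125 and 545 cells in AML lung 1, 2 and 3 and as 0, 1 and 3 cells in normal lung 1, 2 and 3. In AML lung they had 206.5, 144 and 98.8 CPM of Alox5, and 59.6, 19.2 and 15.5 CPM of Ptgs1, above the Ptgs1 of neutrophils of the same libraries (12.98, 2.85 and 4.19 CPM).

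Interstitial macrophages numbered 28, 119 and 484 cells in AML lung and 8, 15 and 42 in normal lung. Their Hpgds was 155, 170.1 and 70.6 CPM in AML lung and 145, 101 and 152 CPM in normal lung, with overlap, and their Hpgd was 155, 49.9 and 104 CPM in AML lung and 226, 351 and 298 CPM in normal lung; neither was tested, and normal lung 1 and 2 hold under 20 such cells. Group 2 innate lymphoid cells gave 18, 10 and 1 Alox5 UMIs in AML lung and 1, 9 and 7 in normal lung.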
